A study of Mus musculus with 239 samples.

Results

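Luminal cells of the pregnant mouse mammary gland were divided by their level of Wap, which encodes whey acidic protein, a major whey protein of mouse milk. Of the 239 single cells in the study, 49 were pregnant luminal cells. Those at 400 FPKM of Wap or more were called Wap-high (27 cells) and those below 400 FPKM Wap-low (22 cells), where FPKM counts fragments per kilobase of transcript and per unit of library size. The classes were chosen from measured Wap values of the same cells, so Wap itself is no result and every difference below is a description without a test. All cells came from the number 4 mammary glands of female FVB mice aged 3 to 4 months. The pregnant mice were at day 12 of pregnancy (12.5 in the protocol), and 54 luminal cells of virgin mice and the basal cells of pregnant mice are used for reference. Luminal cells were viable cells sorted for high CD24 and low CD29, basal cells for intermediate CD24 and high CD29, after depletion of haematopoietic and endothelial cells. Single cells were captured on C1 microfluidic chips, where each capture site was inspected for doublets, and their complementary DNA was amplified before sequencing. No label names the mouse, chip or day of a cell, so each class counts as 1 sample and differences between mice or chips cannot be told apart from differences between classes.

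During pregnancy, progesterone and prolactin drive luminal progenitors to form alveoli, the sac-like units that will make milk. Prolactin acts through its receptor, JAK2 and the transcription factor STAT5, and ELF5 is a further factor needed for the alveolar fate. Differentiation is gradual: casein genes are switched on early, while Wap and Lalba are known as later milk genes, and lipid droplets build up in the cytoplasm before birth.

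Wap formed a continuous range rather than 2 separate levels. Its lowest, median and highest values were 405, 1397 and 9503 FPKM in Wap-high cells and 0, 52.2 and 387 FPKM in Wap-low cells. The 3 cells just below the threshold had 332, 340 and 387 FPKM and the 3 just above it 405, 408 and 421 FPKM. In all, 13 cells lay between 200 and 800 FPKM, 8 of them Wap-high, so the classes are ranges of 1 gene's level and not cell types. In the pregnant basal cells the median of Wap was 0 and the highest value 663 FPKM.

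**Figure D1:**
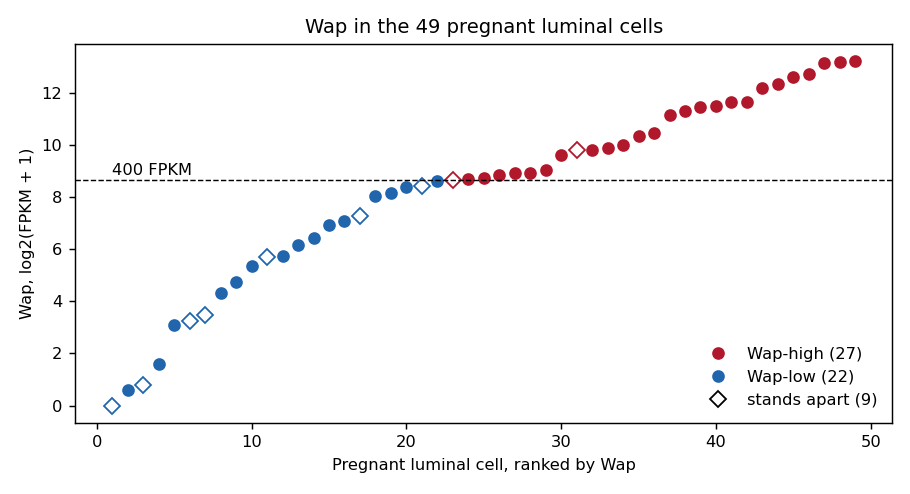
Wap in each of the 49 pregnant luminal cells, as log2(FPKM + 1) on the y axis, with cells ranked from lowest to highest on the x axis. Red marks the 27 Wap-high and blue the 22 Wap-low cells, the dashed line is 400 FPKM, and open diamonds are the 9 cells that stand apart; the values run without a gap across the line.

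Before the classes were compared, 9 of the 49 cells were found to stand apart from the rest. They were picked after seeing the data, as cells with at least 100 FPKM of Acta2, Tagln or Sparc (smooth muscle actin, transgelin and a matrix protein; 7 cells) or with less than 5000 FPKM of Csn2, which encodes beta-casein (7 cells). The classes share them unevenly, with 7 in the Wap-low and 2 in the Wap-high class. Luminal cells 5 and 31 (Wap-low) and 2 (Wap-high) held Acta2 at 6465, 469 and 5342 FPKM with Csn2 at 1855, 864 and 3318 FPKM. Cell 24 (Wap-high) held Acta2 at 988 FPKM beside Csn2 at 24471 FPKM. Cell 37 (Wap-low) held the fibroblast genes Col1a1 at 2760, Col3a1 at 3346 and Dcn at 4284 FPKM, while the epithelial adhesion gene Epcam was at 1.01 FPKM. Such levels go against a luminal label for that cell. Cell 5 held Epcam at only 2.11 FPKM and the basal keratin gene Krt5 at 27.7 FPKM. Cell 2 held Krt5 at 181 FPKM and Krt17, also of basal cells, at 957 FPKM, and cell 31 held Krt17 at 141 FPKM. Epcam was at 200 FPKM in cell 2 and 59.1 FPKM in cell 31. The luminal keratin gene Krt8 was at 448, 744 and 176 FPKM in cells 5, 2 and 31. The luminal label of these cells is in doubt as well. Cell 16 (Wap-low) held the endothelial genes Emcn at 156 and Cdh5 at 6.53 FPKM and the fatty acid binding gene Fabp4 at 1833 FPKM, beside Csn2 at 25578 FPKM. Cell 6 (Wap-low) held Tagln at 199 FPKM with Csn2 at 773 FPKM, and cell 13 (Wap-low) had Csn2 at 583 FPKM. Cell 48 (Wap-low) had Csn2 at 3582 FPKM, and only 1695 genes at 1 FPKM from 32.8 M fragments (M, 1e+06). Cell 49 (Wap-high), with 2216 genes from 39.9 M fragments, met neither criterion and stays among the other cells. Because the choice used Csn2, it narrows by construction the spread of milk genes in the Wap-low class, and results are therefore given with all 49 cells and again with the other 40.

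Markers of the luminal label were counted in all 49 cells, the 9 included. Krt8 and Krt18, the simple epithelial keratins, reached 100 FPKM in 27 and 26 of 27 Wap-high and in 20 and 20 of 22 Wap-low cells. The cells below 100 FPKM of either keratin were all among the 9. Esr1, the oestrogen receptor, and Cited1 were at 1 FPKM in none of the 27 or 22 cells, which allows shares of up to 11.1% and 13.6%, against 33 and 38 of 54 virgin luminal cells. Summed levels of 10 endothelial, 10 immune, 10 fibroblast, 10 adipocyte and 7 erythroid markers had medians of at most 0.139 FPKM in either class. Their highest sums in Wap-high and Wap-low cells were 2.95 and 253 FPKM for the endothelial list, 106 and 22.4 FPKM for immune genes, 1001 and 14726 FPKM for fibroblast genes, 0.596 and 1840 FPKM for adipocyte genes and 0.385 and 0 FPKM for the erythroid list. Of the defining markers, Ptprc and Cdh5 reached 1 FPKM in 0 Wap-high cells and 1 Wap-low cell each.

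Depth was close in the classes. The lowest, median and highest depths were 2.63, 9.14 and 39.9 M fragments in Wap-high and 4.36, 8.49 and 32.8 M in Wap-low cells. Genes at 1 FPKM numbered 2216, 3653 and 5089 in Wap-high and 1695, 3594 and 5012 in Wap-low cells. Milk protein genes without Wap took a median of 22.7% of summed FPKM in Wap-high cells (range 2.57 to 34.8%) and 11.04% in Wap-low cells (range 0.382 to 21.2%). FPKM is relative to each cell's own total, so the lists were also computed after rescaling each cell without the milk protein genes.

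The milk protein genes are the members on which the comparison turns, and their promoters are shown for the binding motif of STAT5, the factor that prolactin activates. Sequences are the 250 bases before the start of the gene in RefSeq on GRCm38.p6, read 5′ to 3′ along the gene's strand. They lie at chr5:87665958-87666207 (plus strand) for Csn1s1, chr5:87699426-87699675 (minus) for Csn2, chr15:103565082-103565331 (minus) for Glycam1, chr15:98482684-98482933 (minus) for Lalba and chr11:6638650-6638899 (minus) for Wap. Capitals mark each match to TTCNNNGAA, which reads the same on both strands:
Csn1s1: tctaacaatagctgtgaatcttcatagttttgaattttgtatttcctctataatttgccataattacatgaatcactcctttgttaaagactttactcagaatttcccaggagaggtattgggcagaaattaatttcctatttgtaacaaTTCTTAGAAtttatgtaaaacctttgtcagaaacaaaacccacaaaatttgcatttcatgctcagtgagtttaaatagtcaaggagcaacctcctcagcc
Csn2: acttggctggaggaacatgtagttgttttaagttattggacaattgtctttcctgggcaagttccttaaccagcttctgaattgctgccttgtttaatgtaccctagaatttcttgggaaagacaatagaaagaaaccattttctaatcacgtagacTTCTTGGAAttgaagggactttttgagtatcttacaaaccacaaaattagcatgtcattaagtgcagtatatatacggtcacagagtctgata
Glycam1: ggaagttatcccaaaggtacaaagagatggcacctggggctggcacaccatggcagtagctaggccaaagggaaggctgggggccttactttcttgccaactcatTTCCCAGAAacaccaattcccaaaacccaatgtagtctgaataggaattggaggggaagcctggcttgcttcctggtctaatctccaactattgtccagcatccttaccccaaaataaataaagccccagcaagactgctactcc
Lalba: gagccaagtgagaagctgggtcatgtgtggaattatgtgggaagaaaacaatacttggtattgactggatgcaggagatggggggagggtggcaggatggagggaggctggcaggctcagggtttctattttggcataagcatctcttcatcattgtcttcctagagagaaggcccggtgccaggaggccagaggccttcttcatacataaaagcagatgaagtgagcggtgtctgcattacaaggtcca
Wap: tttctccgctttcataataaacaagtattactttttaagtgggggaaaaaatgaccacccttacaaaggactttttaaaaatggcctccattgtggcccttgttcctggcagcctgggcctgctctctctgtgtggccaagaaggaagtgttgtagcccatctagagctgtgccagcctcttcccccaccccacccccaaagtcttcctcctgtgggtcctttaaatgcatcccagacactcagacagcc
The GENCODE models of Csn2 and Lalba, whose ends are used for gene positions here, begin upstream of these RefSeq starts, so most of the Csn2 window, motif included, and the end of the Lalba window lie inside the GENCODE gene. Counted from the RefSeq start, the motif began 100 bases before the gene start in Csn1s1, 93 bases before it in Csn2 and 145 bases before it in Glycam1. It was not found in this window of Lalba, Wap or Csn1s2a, so 3 of the 6 milk protein promoters in the table held it, Wap's included in the 6. Nor was the motif found in the same windows of Spp1, Fabp3, Plin2, Cd36, Thrsp or Lao1, which were also searched. For comparison, with 1 promoter counted per gene, 7.18% of all 27025 held it. Among genes that passed the filter on low values described below, 5.80% of 4725 promoters held it, against 7.38% of the 393 of genes higher and 10.4% of the 154 of genes lower in Wap-high cells. A match is a run of letters and was not tested as a binding site.

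Across the transcriptome, milk protein, milk fat and a few secreted or transport genes were higher in Wap-high cells, while Krt14 and Ifitm3 were among the genes that were lower. A gene was called higher or lower where the mean of log2(FPKM + 1) differed by at least 1 between the classes, among genes that reached 1 FPKM in 25% or more of cells in the class with the higher mean. Of 6031 genes that passed this filter, 513 were higher (8.51%) and 186 lower (3.08%) in Wap-high cells. Because a rare gene can pass through the class where it is higher, counts over genes that passed are descriptions only. Over all of them the median difference was 0.11, with quartiles of -0.30 and 0.51. Without the 9 cells that stand apart, 363 of 6195 genes were higher and 520 lower, and the median difference was -0.12. The balance of higher and lower calls thus turned with these 9 cells. Of the genes called in all 49 cells, 286 of the 513 higher and 146 of the 186 lower were called again in the 40 cells. With the 40 cells also rescaled without milk protein genes, 437 were higher and 377 lower.

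Milk protein genes were higher in Wap-high cells throughout the list, and Lalba and Glycam1 differed most. Of 7 measured genes besides Wap, 6 passed the filter and all 6 were called higher, with a median difference of 2.43 (4 called higher and a median of 1.50 without the 9 cells). Lalba encodes alpha-lactalbumin, the regulatory subunit of lactose synthase. Its lowest, median and highest levels were 0, 223 and 4065 FPKM in Wap-high cells and 0, 6.48 and 257 FPKM in Wap-low cells. It reached 100 FPKM in 19 of 27 Wap-high cells and 2 of 22 Wap-low cells, and the ranges overlapped, with 12 Wap-high cells above every Wap-low cell. The mean log2(FPKM + 1) was 7.14 ± 3.02 (SD, 27 cells) against 3.10 ± 2.70 (SD, 22 cells), a difference of 4.03 (3.79 without the 9 cells). Glycam1, a mucin-like whey glycoprotein, ran at 118, 10123 and 23007 FPKM in Wap-high and 84.6, 705 and 7779 FPKM in Wap-low cells. Its mean log2(FPKM + 1) was 12.86 ± 1.61 and 9.40 ± 2.01, a difference of 3.46 (3.43 without the 9 cells), and 17 Wap-high cells lay above every Wap-low cell. In virgin luminal cells the median of Glycam1 was 0.139 FPKM and that of Lalba 5.51 FPKM. In pregnant basal cells these medians were 0.122 and 0 FPKM.

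The caseins, which carry calcium and amino acids in milk, were abundant in both classes. Csn2 ran at 3318, 37564 and 64837 FPKM in Wap-high and 583, 17712 and 39174 FPKM in Wap-low cells. In 16 of 22 Wap-low cells it was at 5000 FPKM or more, against a median of 323 FPKM in virgin luminal and 1.25 FPKM in pregnant basal cells. Its difference in mean log2(FPKM + 1) was 1.78, and 0.81 without the 9 cells, which were picked partly on this gene. Csn3, the kappa-casein that stabilises the casein micelle, ran at 701, 9499 and 22131 FPKM in Wap-high and 4.03, 1848 and 7324 FPKM in Wap-low cells. It differed by 2.75 (1.66 without the 9 cells), and 16 of 27 Wap-high cells exceeded every Wap-low cell. Csn1s1 and Csn1s2a, the alpha-caseins, differed by 1.72 and 2.11 (1.00 and 1.34 without the 9 cells). Csn1s2b was found at 1 FPKM in 4 of 27 Wap-high and 0 of 22 Wap-low cells, under the filter. The caseins lie in 1 cluster on chromosome 5 of GRCm38 (Csn1s1 at 87666208 to 87682578, Csn2 at 87692624 to 87699630, Csn3 at 87925579 to 87932665), while Lalba and Glycam1 are on chromosome 15.

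**Figure D2:**
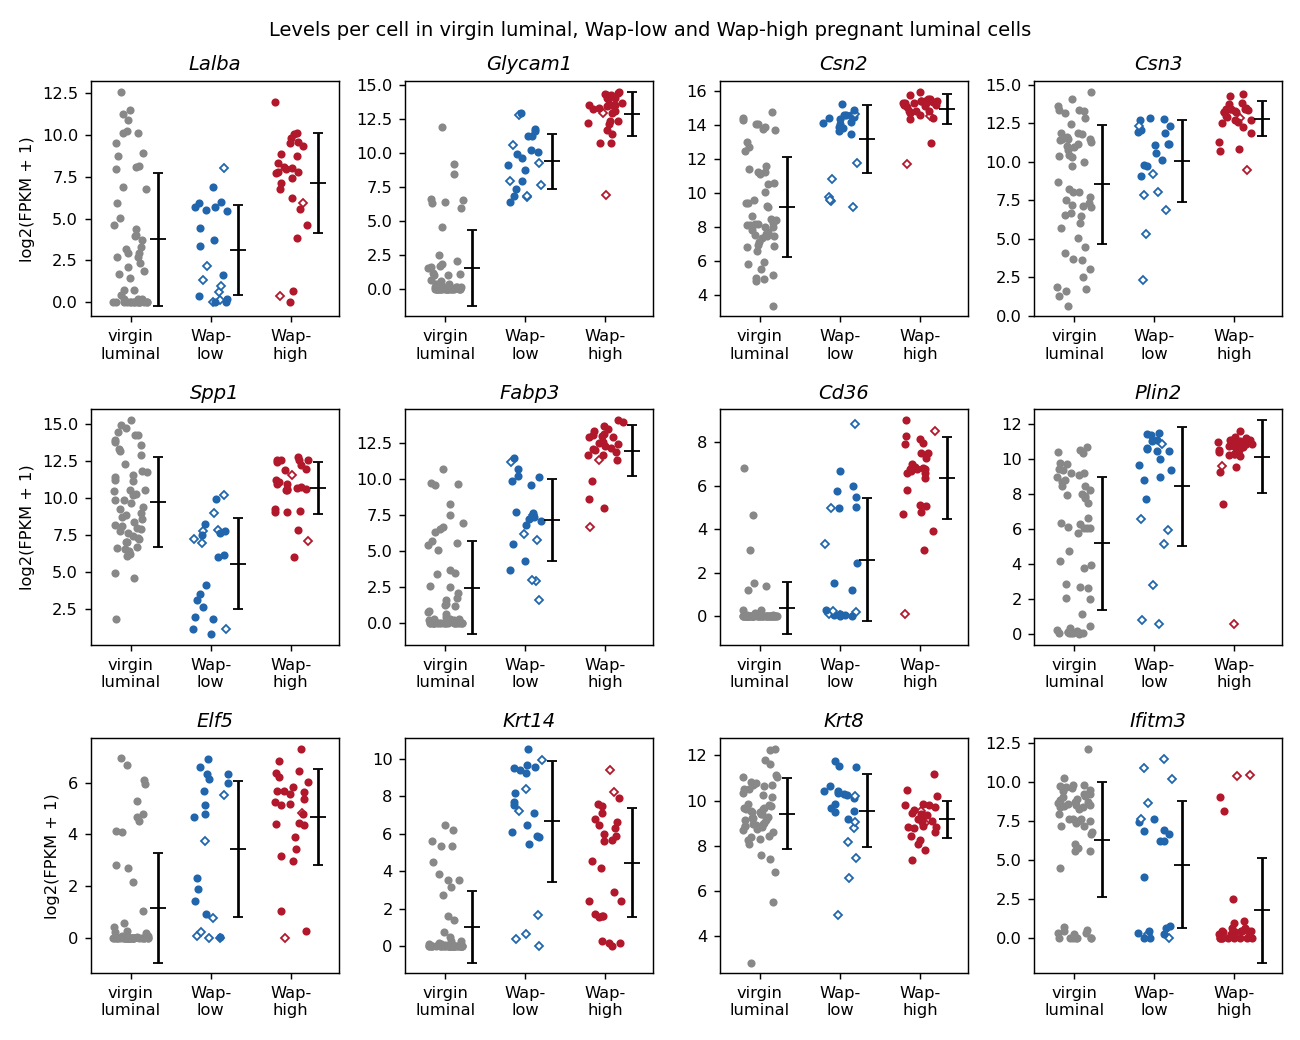
Levels of 12 genes as log2(FPKM + 1) in the 54 virgin luminal (grey), 22 Wap-low (blue) and 27 Wap-high (red) cells; each point is a cell, open diamonds are the 9 cells that stand apart, and black bars are the mean and SD over cells. Glycam1, Spp1 and Fabp3 separate the classes most, while Plin2 overlaps apart from a few cells near 0.

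Genes of milk fat were also higher in Wap-high cells. Of 33 measured genes of fatty acid uptake, fatty acid synthesis and the milk fat globule, 27 passed the filter, 18 were called higher and 0 lower, and the median difference was 1.51 (11 higher, 0 lower and a median of 0.82 without the 9 cells). Fabp3, which carries fatty acids in the cytoplasm, had the largest difference of the list. It ran at 97.4, 5488 and 17036 FPKM in Wap-high and 1.99, 151 and 2715 FPKM in Wap-low cells, and 21 of 27 Wap-high cells exceeded every Wap-low cell. The mean log2(FPKM + 1) was 11.94 ± 1.78 against 7.14 ± 2.86, a difference of 4.80 (4.25 without the 9 cells), with a virgin luminal median of 0.605 FPKM. Cd36, a fatty acid transporter of the plasma membrane, had medians of 108 and 1.60 FPKM and reached 100 FPKM in 16 of 27 Wap-high and 2 of 22 Wap-low cells. It differed by 3.76 (3.89 without the 9 cells). Thrsp, a regulator of fatty acid synthesis, differed by 3.35, but by 1.51 without the 9 cells. Acsl4, which activates fatty acids by joining them to coenzyme A, differed by 2.50 (2.19 without the 9 cells).

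Proteins of the lipid droplet and of the milk fat globule membrane followed with smaller differences. Plin2, the coat protein of the lipid droplet, ran at 0.498, 1653 and 3117 FPKM in Wap-high and 0.497, 906 and 2891 FPKM in Wap-low cells, nearly the same range. It reached 1000 FPKM in 22 of 27 Wap-high and 11 of 22 Wap-low cells. Its difference of 1.69 became 0.33 without the 9 cells. Its Spearman correlation with Wap was 0.26 over the 49 cells and 0.01 over the 40, lower than those of Lalba and Glycam1. Btn1a1 and Xdh, whose proteins join droplet and membrane in milk fat secretion, had medians of 36.9 against 8.51 FPKM and 25.5 against 4.71 FPKM. They differed by 2.04 and 1.62 (1.56 and 1.42 without the 9 cells). Scd1, the desaturase that makes monounsaturated fatty acids, had medians of 186 and 30.7 FPKM and differed by 2.04 (1.74 without the 9 cells).

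Spp1, which encodes osteopontin, a phosphoprotein secreted into milk, had the largest difference of all genes. It ran at 64.4, 1968 and 7163 FPKM in Wap-high and 0.707, 95.2 and 1193 FPKM in Wap-low cells, and 20 of 27 Wap-high cells exceeded every Wap-low cell. The mean log2(FPKM + 1) was 10.68 ± 1.77 against 5.55 ± 3.08, a difference of 5.13 (5.98 without the 9 cells). Unlike Glycam1 and Fabp3, Spp1 was already high in virgin luminal cells, with a median of 741 FPKM, so the Wap-low cells lay below both. It reached 1000 FPKM in 24 of 54 virgin luminal, 1 of 22 Wap-low and 20 of 27 Wap-high cells. The other genes among the 10 with the largest differences were Lao1, an L-amino acid oxidase of milk (4.03), Gjb6, a gap junction subunit (3.21), Abcg2, the transporter that moves riboflavin and drugs into milk (2.94), and Dcxr, a sugar reductase (2.94). In the 40 cells these differed by 4.21, 3.11, 2.64 and 2.26, and 8 of the 10 genes with the largest differences were also among the 10 largest there.

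Lactose, hormone signalling and secretory pathway genes differed less than the milk genes. Of 11 measured genes of glucose uptake and lactose precursor supply, 9 passed and 0 were called, with a median difference of 0.38. Without the 9 cells 0 were higher and 1 lower, with a median of 0.01. B4galt1, the catalytic partner of alpha-lactalbumin, had medians of 318 and 154 FPKM and differed by 0.85 (0.70 without the 9 cells). Slc2a1, the glucose transporter GLUT1, differed by 0.95, but by 0.04 without the 9 cells. Of 18 prolactin, STAT5 and alveolar regulator genes, 15 passed, 3 were called higher and 0 lower, with a median of 0.45 (0.31 without the 9 cells). These 3 were the kinase gene Akt1 (1.77), Elf5 (1.24) and Stat5a (1.19), which differed by 1.68, 0.51 and 0.46 in the 40 cells. Elf5 ran at 0, 34.6 and 157 FPKM in Wap-high and 0, 18.4 and 119 FPKM in Wap-low cells and overlapped widely. Prlr, the prolactin receptor, had medians of 3.26 and 2.51 FPKM in Wap-high and Wap-low cells and differed by 0.65. Its median in virgin luminal cells was 67.7 FPKM, but these are not like cells. Esr1 was at 1 FPKM in 33 of 54 of them and in 0 of 27 and 0 of 22 pregnant cells. Of 30 genes of protein entry, folding and exit in the endoplasmic reticulum, all 30 passed, 4 were higher and 0 lower, with a median of 0.28. Without the 9 cells 1 was higher and 2 lower, with a median of 0.01. Xbp1, a transcription factor of secretory cells, differed by 1.01, and by 0.24 in the 40 cells.

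Krt14, a keratin of basal cells, was lower in Wap-high cells. Krt14 ran at 0, 48.4 and 668 FPKM in Wap-high and 0, 166 and 1484 FPKM in Wap-low cells, and reached 100 FPKM in 7 of 27 Wap-high, 13 of 22 Wap-low and 0 of 54 virgin luminal cells. The mean log2(FPKM + 1) was 4.46 ± 2.90 against 6.65 ± 3.25, a difference of -2.19, and of -3.76 without the 9 cells. Of 18 basal and contractile genes, only 4 passed the filter, with Krt14 called lower and a median of -0.83 (2 called lower and -0.57 without the 9 cells). Krt5, the usual keratin partner of Krt14, reached 10 FPKM in 2 of 27 and 1 of 22 cells, all of them among the 9. The Wap-high cell with the most Krt14 was also 1 of the 9. Acta2 differed by -0.19. In pregnant basal cells the median of Krt14 was 711 FPKM and that of Acta2 4846 FPKM. Luminal genes as a list depended on the 9 cells. Of 13 that passed, 2 were called higher and 0 lower, with a median of 0.25. In the 40 cells 0 were higher and 4 lower, with a median of -0.65, against -0.12 over all genes that passed. With the 40 cells also rescaled without milk protein genes, 0 were higher and 2 lower, with a median of -0.46. Krt8 ran at 163, 586 and 2345 FPKM in Wap-high and 29.6, 1023 and 3463 FPKM in Wap-low cells and differed by -0.37, or -1.16 without the 9 cells. Krt18 differed by -0.24, or -0.87 without them, and Krt19 by 0.97, or -0.29 without them.

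**Figure D3:**
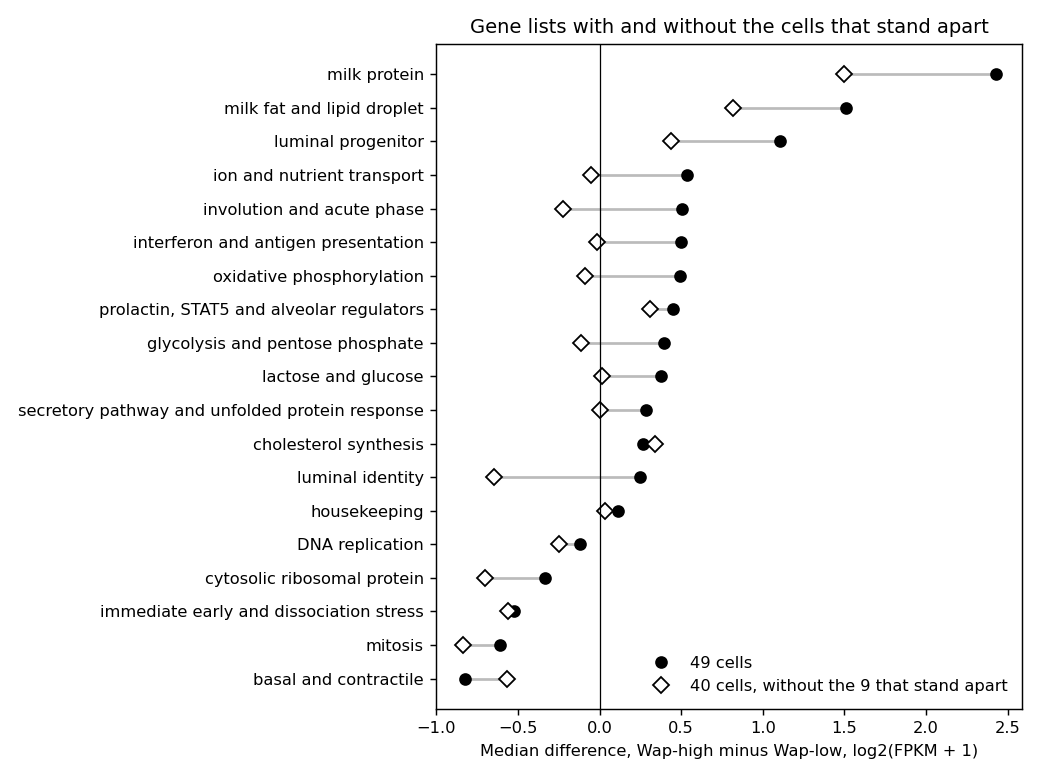
Median difference of each gene list in mean log2(FPKM + 1), Wap-high minus Wap-low, with all 49 cells (filled circles) and with the 40 cells left after the 9 that stand apart (open diamonds). Milk protein and milk fat lie highest in both, and the luminal identity list moves from 0.25 to -0.65.

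Among the 10 largest differences of genes lower in Wap-high cells were Ifitm3 (-2.95), Pdlim1 (-2.75), Srsf7 (-2.24), Krt14 (-2.19), Hbegf (-2.15), Igbp1 (-2.06), Ddah2 (-1.99), Exosc7 (-1.96) and Sdc2 (-1.93), and 4 of the 10 were also among the 10 largest in the 40 cells. Ifitm3, an interferon-induced membrane protein that restricts virus entry, had medians of 0.316 FPKM in Wap-high and 72.99 FPKM in Wap-low cells. It reached 50 FPKM in 4 of 27 Wap-high, 12 of 22 Wap-low and 38 of 54 virgin luminal cells. Pdlim1, an adaptor of the actin cytoskeleton, had medians of 1.19 FPKM in Wap-high and 79.6 FPKM in Wap-low cells, and its difference was -3.90 in the 40 cells. Srsf7, a splicing factor, was at 1 FPKM in 20 of 27 and 21 of 22 cells and differed by -2.28 in the 40 cells. Hbegf, a growth factor of the EGF family, was at 1 FPKM in 11 of 27 and 16 of 22 cells. Sdc2, a cell surface proteoglycan, was at 1 FPKM in 6 of 27 and 14 of 22 cells.

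Small differences shared by many members were found in the ribosomal protein and immediate early lists. All 30 cytosolic ribosomal protein genes passed the filter, 28 differed below 0 and 0 reached the size for a call. Their median was -0.33. Without the 9 cells it was -0.70, and 1 was called lower. Of all genes that passed, 57.0% differed above 0 in the 49 cells. The median over all was 0.11, and -0.12 without the 9 cells. Rescaling without milk protein genes left the ribosomal median at -0.32 in the 49 cells and -0.51 in the 40 cells. Rpl13 had medians of 884 and 1494 FPKM and differed by -0.64, and Rps3 had 559 and 776 FPKM and differed by -0.59. Such genes have many processed copies in the genome, and how reads were divided among copies is not stated. All 18 immediate early genes, which respond within minutes to tissue handling, also passed, with 0 higher, 4 lower and a median of -0.52 (0, 2 and -0.56 without the 9 cells). The 4 were Ier2 (-1.30), Junb (-1.26), Fos (-1.25) and Zfp36 (-1.23). Over all genes that passed, 186 of 6031 were lower in the 49 cells and 520 of 6195 in the 40 cells. Rescaling without milk protein genes left the immediate early median at -0.49 in the 49 cells and -0.39 in the 40 cells. Fos, a transcription factor of the AP-1 complex, had medians of 60.6 and 143 FPKM.

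Few cells of either class carried Top2a or Mki67 at 10 FPKM. Top2a, needed for chromosome separation, reached 10 FPKM in 0 of 27 Wap-high and 2 of 22 Wap-low cells. Mki67, the proliferation marker, did so in 1 of 27 and 2 of 22 cells. At 1 FPKM, Mki67 was found in 4 of 27 Wap-high, 6 of 22 Wap-low and 10 of 54 virgin luminal cells. Of 25 mitosis genes, 7 passed, 0 were higher and 1 lower (Ube2c, -1.28), with a median of -0.61. Both cells with Top2a lay near the threshold, at 259 and 285 FPKM of Wap. With the threshold at 200 FPKM the mitosis median was 0.05 with 0 called, and the difference of Top2a was 0.41 in place of -0.49. Of 20 replication genes, 6 passed, 1 was higher (Fen1, 1.29) and 0 lower, with a median of -0.12.

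Read along the whole range of Wap without a threshold, the same milk genes led. Spearman's rho of log2(FPKM + 1) with Wap was computed across the 49 cells for 5269 genes, as a description, since these points share libraries, depth and scaling within each cell. The median rho was 0.02, with quartiles of -0.10 and 0.13. The 10 highest were Fabp3 (0.84), Glycam1 (0.83), Spp1 (0.80), Csn2 (0.74), Csn3 (0.73), Csn1s1 (0.73), Lalba (0.69), Trf (0.67), Csn1s2a (0.66) and Acsl4 (0.66). Trf encodes transferrin, an iron carrier secreted into milk, and had medians of 8022 and 3668 FPKM. Within the Wap-high class alone, rho was 0.69 for Glycam1, 0.68 for Fabp3, 0.61 for Csn2 and 0.57 for Spp1. Within the Wap-low class it was 0.32, 0.28, 0.24 and 0.10. The 5 lowest were Mcc (-0.49), Rps15a (-0.48), Akap8 (-0.47), Gigyf1 (-0.47) and Eef1a1 (-0.45), and Rps15a and Eef1a1, parts of the translation machinery, reached -0.74 and -0.69 over the 40 cells.

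**Figure D4:**
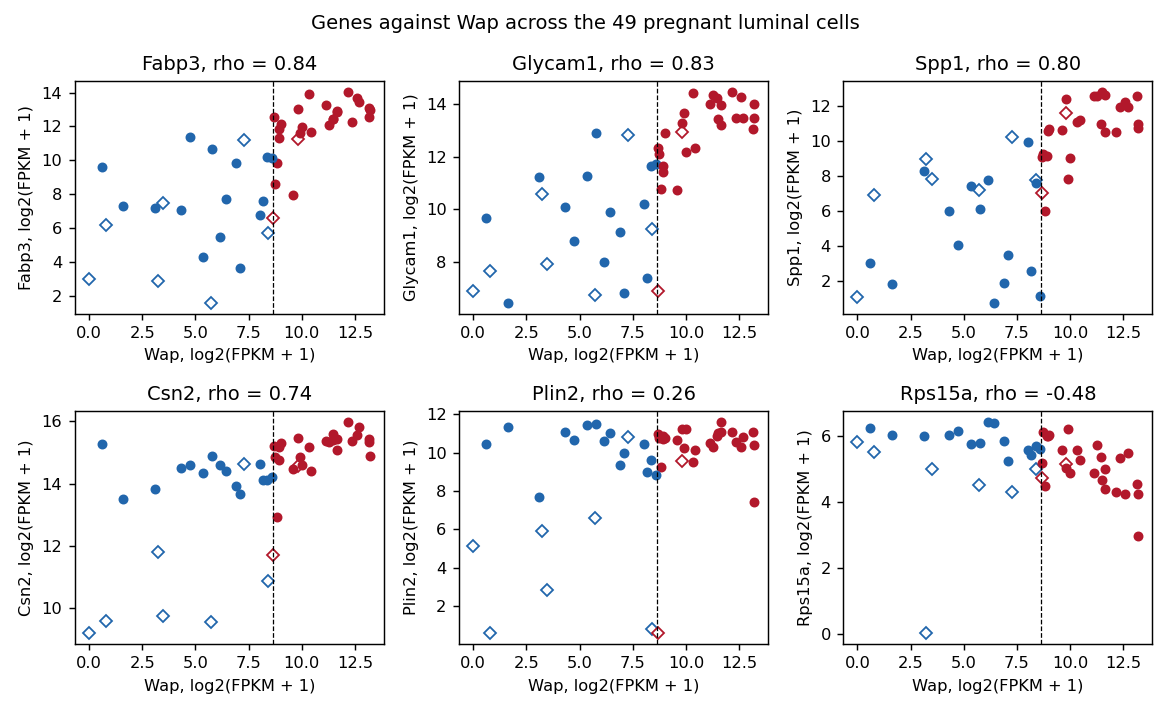
Genes plotted against Wap in the 49 cells, both as log2(FPKM + 1), with Spearman's rho above each panel; red is Wap-high, blue Wap-low, open diamonds the 9 cells that stand apart and the dashed line 400 FPKM. Fabp3, Glycam1 and Spp1 vary widely left of the line and are high right of it, and Rps15a is lower to the right. Csn2 and Plin2 have low values mainly in open diamonds, which for Csn2 is set by how the diamonds were chosen.

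The same threshold was applied to virgin luminal cells, which the rule did not use. Only 7 of the 54 cells had 400 FPKM of Wap or more, so the values below rest on few cells. Their mean log2(FPKM + 1) was above that of the other 47 by 7.09 for Lalba, 5.60 for Fabp3, 5.39 for Glycam1, 5.31 for Csn2 and 4.43 for Spp1. Against the 18 of the 47 cells below 1 FPKM of Esr1 the differences were 5.74, 5.18, 5.17, 3.66 and 3.09. The 7 cells were not filtered on Esr1, which reached 1 FPKM in 33 of all 54 virgin luminal cells. These sides were thus not matched for Esr1. Not every gene kept its direction: Krt14 was higher in the 7 cells, by 2.03 and by 1.21 against the 18, where it was lower in pregnant Wap-high cells. Ifitm3 was lower in both settings, by -4.47 and -2.26 in virgin cells. Cd36 and Gjb6 differed by 0.56 and 0.25 in virgin cells, against 3.76 and 3.21 in pregnant cells, and whether these differences differ was not tested.

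**Figure D5:**
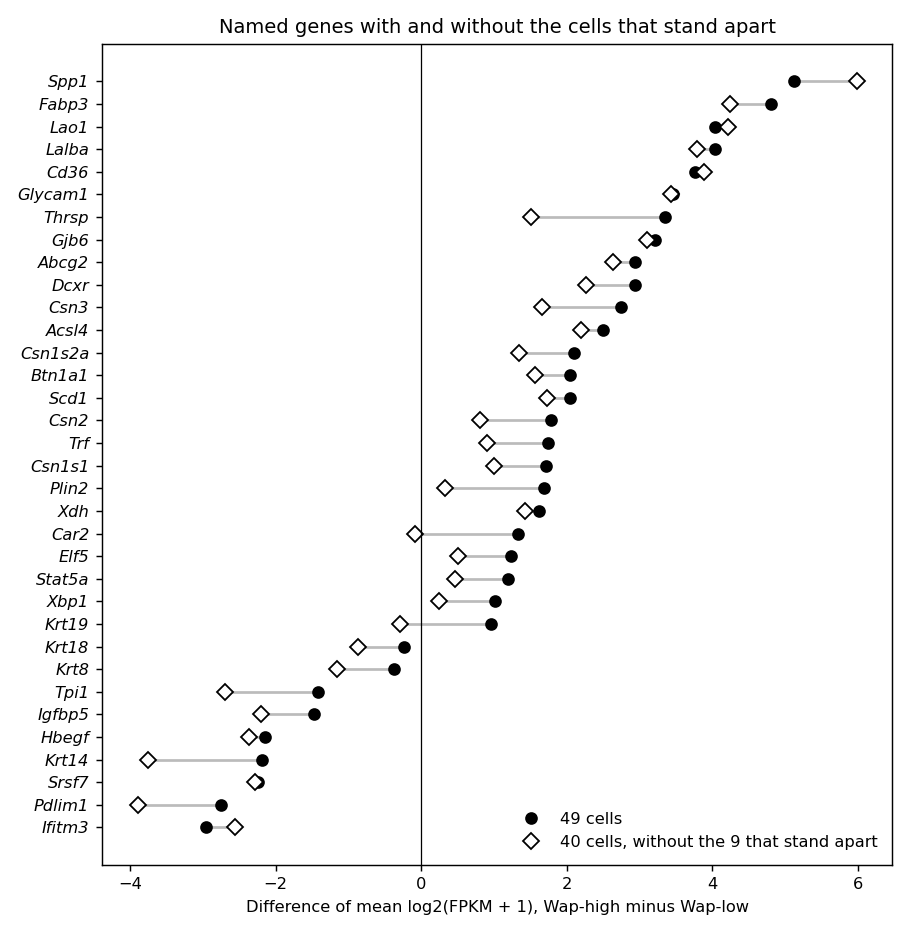
Difference in mean log2(FPKM + 1), Wap-high minus Wap-low, of 34 named genes with all 49 cells (filled circles) and with the 40 cells left after the 9 that stand apart (open diamonds). Spp1, Fabp3, Lao1, Lalba, Cd36 and Glycam1 stay above 3 in both, while Plin2 and Thrsp shrink and Krt14 and Tpi1 become more negative.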

How the data were processed

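The authors deposited 1 table of FPKM values for 239 cells and 18850 genes. No header states the unit; it was taken from the presence of Cufflinks 2.2.1 and from the values. Per the submitters' processing notes, Cufflinks was run beside TopHat2 2.0.13 and Trimmomatic 0.35 on mm10 (GRCm38). Depth was read from the steps of low FPKM values: of 513263 values under 20 steps, 99.2% were whole to within 0.05, and the median cell had 8.74 M fragments (M, 1e+06). Copies made by PCR cannot be told from molecules.

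Cells are not replicates, so no p-value was computed. Means of log2(FPKM + 1), pseudocount 1, were compared in Python 3.11.15 (numpy 2.4.6, pandas 2.3.3, scipy 1.17.1), without Wap, on genes at 1 FPKM in at least 25% of cells of the higher class. Upper limits for a count of 0 are 3 cells of the class and cover counting only. No doublet caller was run, and 0 columns lacked a sample. The script was tested on simulated data.

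The members and the 25 gene lists were chosen with earlier results of these data known. Named genes were the 10 largest differences in each direction, up to 4 members of each list described, the 10 highest and 5 lowest correlations with Wap, and a fixed set of milk, luminal, basal and cycling genes. The genes used to describe the 9 cells that stand apart were named after their values were seen, as was Tapbp. A gene that the rule names is not reported here. Alternatives were other pseudocounts, filters, thresholds, scalings and sets of cells. Coordinates are from GENCODE and RefSeq on GRCm38.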

Additional observations from a re-analysis of the deposited data

How the results depend on the processing

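Genes higher and lower in Wap-high cells numbered 1250 and 600 with pseudocount 0.1, 70 and 17 with pseudocount 10, and 812 and 413 between the highest and lowest cells by Wap (16 each). Genes lower numbered 306 at a Wap threshold of 800 FPKM, 320 without cells at 10 FPKM of Acta2 or Tagln, and 685 in cells of the middle quartiles of genes found. Alternatives chosen after seeing the data gave 339 lower without cells at 100 FPKM of Acta2, Tagln or Sparc, 337 higher and 457 lower without cells below 5000 FPKM of Csn2, 520 lower without both kinds, and 377 lower without both and rescaled. Higher calls were 73.4% of all calls, against 56.5% at 800 FPKM, 51.6% in the middle quartiles, 42.4% without low-Csn2 cells and 41.1% without both kinds; in the 49 cells rescaling gave 74.96%. The difference of Irf1 turned to 0.23 at a threshold of 200 FPKM, and the difference of Car2 to -0.0634 without low-Csn2 cells and to -0.0895 without both kinds. Of genes under the size for a call, Acta2 ranged from -0.68 to 0.73 over the alternatives, Krt19 from -0.29 to 1.19, Kit from -0.19 to 0.37, Krt18 from -0.87 to 0.06, Top2a from -0.74 to 0.41 and Mki67 from -1.09 to 0.05. The cause was not tested.

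Medians of the milk protein, milk fat, luminal progenitor, basal, ribosomal protein and immediate early lists kept their sign in 16 of 16 alternatives, milk protein between 1.42 and 3.05 and milk fat between 0.75 and 1.78. The luminal identity, involution and housekeeping medians did so in 12 of 16. No paired analysis was possible because both classes are cells of 1 group and replicate numbers only name cells. Depth limits the low genes: a gene near 1 FPKM can be missed in a cell.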

Other observations

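Luminal progenitor and transport genes, like all genes that passed, were called higher more often than lower in the 49 cells. Over all 6031 genes that passed, 8.51% were called higher and 3.08% lower. Of 14 luminal progenitor genes, 12 passed the filter, 7 were called higher and 0 lower. The median difference in mean log2(FPKM + 1) was 1.10 (2 higher, 1 lower and 0.44 without the 9 cells that stand apart). The 7 include Csn3, Trf and Elf5, which also belong to the milk protein, transport and regulator lists. Ltf, the iron-binding milk protein lactoferrin, had medians of 79.6 FPKM in Wap-high and 2.40 FPKM in Wap-low cells and differed by 2.05. Kit, the receptor that marks these progenitors, differed by 0.07, with medians of 1.23 and 3.64 FPKM. Of 19 ion and nutrient transport genes, 14 passed, 6 were higher and 1 lower, with a median of 0.53. Without the 9 cells 3 were higher and 2 lower, with a median of -0.05. Folr1, a folate receptor, differed by 2.01, and Slc5a8, a monocarboxylate transporter, by -1.50. Of 16 cholesterol synthesis genes, 11 passed and 1, the farnesyl diphosphate synthase gene Fdps, was higher (1.92).

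Energy, immune and involution lists had medians above 0 in the 49 cells and below 0 in the 40 cells. The median over all genes that passed moved the same way, from 0.11 to -0.12. After the 40 cells were also rescaled without milk protein genes, the median over all genes that passed was -0.03. The list medians were then 0.07 for oxidative phosphorylation, 0.07 for glycolysis, 0.03 for interferon and -0.04 for involution genes. Oxidative phosphorylation had 18 genes, 5 higher and 0 lower, with a median of 0.49 (0 higher, 1 lower and -0.09 without the 9 cells). Glycolysis had 15 that passed, 1 higher (Pfkl, 1.69) and 1 lower (Tpi1, -1.42), with a median of 0.39 (-0.12 without them). Interferon and antigen presentation had 11 that passed, 2 higher (Psmb9, 1.47, and Tapbp, 1.04) and 3 lower (Ifitm3, -2.95, Psmb10, -1.28, and Irf1, -1.17), with a median of 0.50 (-0.02 without them). Genes known from the involuting gland had 11 that passed, 4 higher and 1 lower, with a median of 0.51 (2 higher, 2 lower and -0.23 without them). Ctsl, a lysosomal protease, had medians of 135 and 35.5 FPKM and differed by 2.38, and Igfbp5, an IGF binding protein of involution, had 21.6 and 67.8 FPKM and differed by -1.48. Of 12 genes of hormone-sensing cells, 2 passed and 0 were called, and of 10 housekeeping genes, 9 passed and 0 were called, with a median of 0.11.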
